A study of Rattus norvegicus with 5 samples.

Results

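Crym, a cytosolic protein that binds thyroid hormone, and 9 nuclear receptors for retinoids, thyroid hormone and related ligands were followed through laser-captured neurons of the rat striatum. The 10 genes were chosen by name. Their choice was made with earlier results of this same comparison known, in which Crym stood first and Rorb 96th of 12054 genes by p in the authors' deposited table. That table, coded as striatopallidal over striatomesencephalic, lists log2 fold changes of -2.75 for Crym and -2.21 for Rorb. The authors' own test, whose tool is not stated, has an adjusted p of 0.927 there for both genes. The ranks therefore order unadjusted p-values, and neither gene stood out after adjustment. Gene symbols came from the authors' table of 12054 genes. By these symbols, 9 of the 10 were found among the 32285 genes counted in each library. Rxra was not matched and is not analysed here. A gene left unmatched, here and below, may still have been counted. Because the contrast between the neuron types guided the choice, the values of the 9 genes are given as a description. The calls that tests over all genes made among them are counted once, and nothing is read from those calls.

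The series holds 5 libraries in 2 groups, set by the labelled cell type. Striatomesencephalic neurons, whose axons reach the midbrain and form the direct pathway, gave 2 libraries. Striatopallidal neurons, whose axons reach the pallidum and form the indirect pathway, gave 3 libraries. In both groups the neurons were identified by a fluorescent tracer placed where their axons end, cut out by laser, and their polyadenylated RNA was reverse transcribed with a kit made for single cells. The labels state no strain, age, sex, treatment or number of animals or cells per library, so the spread between libraries may be technical. Library totals ran from 20845178 to 24805062 counts, and 3 counts, taken as the detection floor, equalled 0.121 to 0.144 CPM (counts scaled to a library total of 1000000).

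Mu-crystallin, the product of Crym, holds triiodothyronine in the cytosol and also acts as a ketimine reductase. Thyroid hormone receptors (Thra, Thrb) and retinoic acid receptors (Rara, Rarb) bind DNA as partners of retinoid X receptors (Rxra, Rxrb, Rxrg). The ROR receptors (Rora, Rorb) mostly bind DNA alone and share their sites with the REV-ERB repressors of the circadian clock. In the mouse striatum Rarb and Rxrg are the principal retinoid receptors, and mice lacking them have impaired dopamine signalling. Rarb is also a classical target of its own ligand, since its promoter carries a retinoic acid response element.

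That element can be read in the rat promoter, which is shown because it links a member of the group to the hormone it binds. RefSeq (build GRCr8) holds promoter windows for 9 of the 10 genes, each with 250 bases before and 50 after an annotated start, and none for Crym. Capitals in the Rarb window mark GTTCACNNNNNGTTCAC, a direct repeat of GTTCAC spaced by 5 bases, which was searched on both strands.

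Rarb, chr15:11336142-11336441, plus strand: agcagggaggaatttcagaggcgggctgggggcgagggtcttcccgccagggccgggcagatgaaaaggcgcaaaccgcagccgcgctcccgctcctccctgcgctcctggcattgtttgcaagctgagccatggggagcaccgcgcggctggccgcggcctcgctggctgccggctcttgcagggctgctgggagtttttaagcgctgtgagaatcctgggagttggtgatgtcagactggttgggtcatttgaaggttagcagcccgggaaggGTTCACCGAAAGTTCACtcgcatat

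The repeat covers bases 276 to 292 of the window, just beyond the annotated start. It was found in 3 of 33469 rat promoter windows (0.00896%), and Rarb had the only match among the 10 windows of the 9 genes. The letters searched were those of the Rarb element itself, so nothing is read from its match or its rarity. The core GTTCA alone is common: it was present in 37.2% of all windows and in those of Rarb, Rorb and Thra. The hexamer AGGTCA, the core of many nuclear receptor sites, was present in 16.2% of all windows and in no window of these genes. Its repeats spaced by 1, 4 or 5 bases were likewise absent there, and they occurred in 0.0538%, 0.00598% and 0.00896% of all windows. Rorb is printed beside Rarb because it was the only receptor among the 8 whose levels did not overlap between the neuron types. Capitals mark its single GTTCA core, which lies on the other strand.

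Rorb, chr1:225970924-225971223, minus strand: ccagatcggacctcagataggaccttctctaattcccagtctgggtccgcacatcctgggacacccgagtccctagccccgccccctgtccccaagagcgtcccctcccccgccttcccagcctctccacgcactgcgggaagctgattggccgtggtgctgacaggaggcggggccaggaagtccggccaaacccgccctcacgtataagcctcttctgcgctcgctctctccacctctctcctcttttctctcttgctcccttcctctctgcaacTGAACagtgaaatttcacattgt

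A motif match is a description of these letters and not evidence of binding. In the same annotation the receptors also sit in paired neighbourhoods. Thrb and Rarb lie next to each other on chromosome 15 with no protein-coding gene between them, and Nr1d2, a REV-ERB gene, lies on the other side of Thrb with 1 protein-coding gene between. Thra and Rara lie on chromosome 10 with 5 protein-coding genes between them, and Thra overlaps the REV-ERB gene Nr1d1 on the opposite strand.

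The labels were checked with the dopamine receptors. Drd1, the dopamine receptor of the direct pathway, stood at 861 and 1084 CPM in striatomesencephalic neurons, compared with 582, 311 and 415 CPM in striatopallidal neurons. Drd2, the receptor of the indirect pathway, stood at 144 and 110.0 CPM in striatomesencephalic and 606, 391 and 524 CPM in striatopallidal libraries. Both followed the labels without overlap, yet each receptor was present in every library. Summed over 9 direct pathway markers, levels were 5014 to 5384 CPM in striatomesencephalic and 1810 to 2726 CPM in striatopallidal neurons. The 5 indirect markers that could be matched summed to 1837 to 2013 CPM in striatomesencephalic and 6197 to 6881 CPM in striatopallidal libraries. Spiny projection neuron markers, all 11 of them matched, summed to 13293 to 18144 CPM in striatomesencephalic and 17579 to 20898 CPM in striatopallidal libraries. RNA of glia was present throughout, with oligodendrocyte marker sums (11 of 11 matched) of 6030 to 7503 CPM in striatomesencephalic and 5408 to 7308 CPM in striatopallidal neurons. Astrocyte sums (12 of 12) were 1200 to 1441 CPM in striatomesencephalic and 1082 to 1586 CPM in striatopallidal libraries, microglial sums (6 of 10) 55.3 to 128 CPM in striatomesencephalic and 44.5 to 139.96 CPM in striatopallidal libraries. Summed markers of interneurons (4 of 11 matched), of oligodendrocyte precursors (3 of 6) and of vessels (6 of 9) stayed at or below 178 CPM, and the 1 matched of 6 choroid plexus markers, Kl, at or below 5.37 CPM. None of 7 markers of cortical glutamatergic neurons was matched, so RNA of such cells was not analysed here. Striatopallidal replicate 2 stood apart, with Spearman correlations across genes of 0.785 to 0.820 with every other library, its own group included. The other pairs had 0.845 to 0.907.

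**Figure D1:**
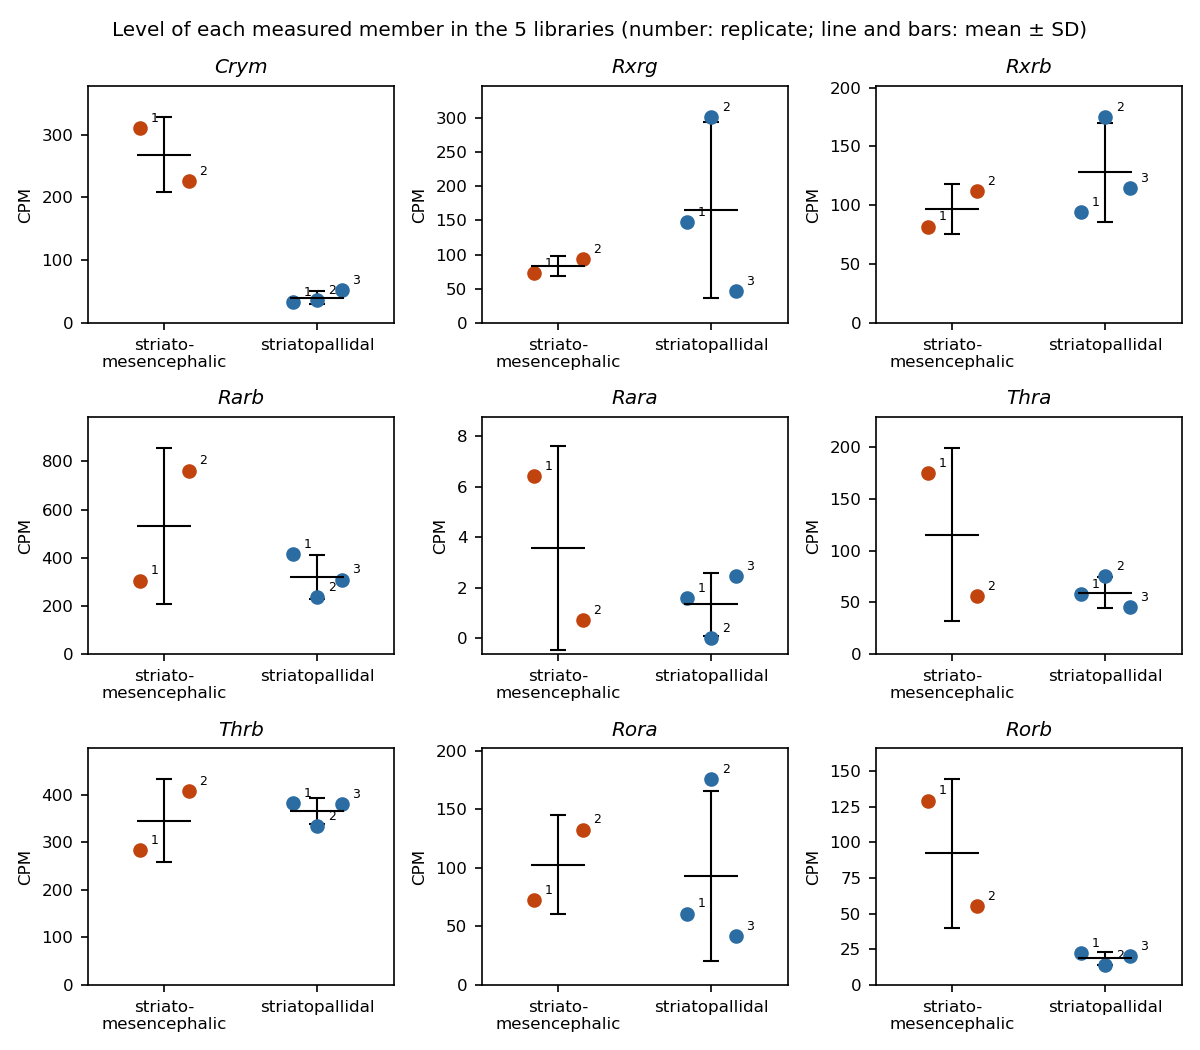
Level of each of the 9 measured genes in CPM (vertical axes, each on its own scale), with striatomesencephalic libraries left and striatopallidal libraries right. Points are libraries, labelled with the replicate number, and lines with bars are means ± SD. Crym and Rorb are the genes whose points do not overlap between the groups, and for Rxrg and Rora the highest point is striatopallidal replicate 2.

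Crym was the gene of the group that differed most between the neuron types. It stood at 310.5 and 225 CPM in striatomesencephalic neurons, compared with 32.7, 35.9 and 52.1 CPM in striatopallidal neurons. The counts behind these levels were 6472 and 5098 in striatomesencephalic and 779, 890 and 1167 in striatopallidal libraries. Both striatomesencephalic libraries lay far above every striatopallidal library, the lower of them 4.33 times the highest striatopallidal level. Within a group the libraries stayed within 1.38-fold (striatomesencephalic) and 1.59-fold (striatopallidal) of each other. The striatomesencephalic mean was 268 ± 60.1 CPM (SD, n = 2) and the striatopallidal mean 40.2 ± 10.4 CPM (SD, n = 3), with a log2 fold change of 2.65 ± 0.45 (SE) for striatomesencephalic over striatopallidal neurons, or 6.27-fold. A larger log2 fold change in size was found for 8.15% of the 13811 genes tested. Crym RNA was thus also present in striatopallidal libraries, well above the floor. In bulk RNA, fewer cells of a type and less RNA per cell cannot be told apart. The summed direct pathway markers moved in the same direction as Crym, and their part in the difference was not tested.

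Rorb, a receptor best known from sensory cortex and retina, showed the same separation with more spread. It stood at 129 and 55.4 CPM in striatomesencephalic neurons, compared with 22.4, 13.7 and 20.3 CPM in striatopallidal neurons. The groups did not overlap, and the lower striatomesencephalic library was 2.47 times the highest striatopallidal library. Mean levels were 92.3 ± 52.2 CPM (SD, n = 2) for striatomesencephalic neurons and 18.8 ± 4.54 CPM (SD, n = 3) for striatopallidal ones, and the log2 fold change was 2.24 ± 0.59 (SE). Without striatomesencephalic replicate 1, the library with the highest value, it was 1.53. Astrocytes also express Rorb in rodents. The 12 astrocyte markers lay 7 above and 5 below 0 and their sums overlapped between the groups, but single markers did not move together. Gfap, the astrocyte intermediate filament, stood at 11.5 and 3.85 CPM in striatomesencephalic and 243, 175 and 87.7 CPM in striatopallidal libraries, a log2 difference of -4.56 ± 0.82 (SE), and DESeq2 called it (adjusted p = 5.84e-06). Aqp4, a water channel, also lay wholly lower in striatomesencephalic libraries, while Slc1a2, a glutamate transporter, and Aldh1l1, a folate enzyme, lay wholly higher there. The part of astrocyte RNA in the Rorb difference was not tested.

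Its relative Rora, a regulator of clock and metabolic genes, did not share this pattern. Rora stood at 72.7 and 133 CPM in striatomesencephalic neurons, compared with 60.9, 176 and 42.1 CPM in striatopallidal neurons. The groups overlapped, with striatopallidal replicates holding both the highest and the lowest of the 5 values. The striatomesencephalic mean was 103 ± 42.5 CPM (SD, n = 2) and the striatopallidal mean 93.0 ± 72.6 CPM (SD, n = 3), and the log2 fold change was -0.10 ± 0.82 (SE). Its sign did not hold: the value was 1.09 without striatopallidal replicate 2, and in the authors' deposited table Rora is higher in striatomesencephalic libraries, by 0.27. Rora made up 36.0% and 70.6% of the counts of the Rora and Rorb pair in striatomesencephalic libraries, against 73.1%, 92.8% and 67.4% in striatopallidal libraries. The share in striatomesencephalic replicate 2 lay inside the striatopallidal range, and replicate 1 stood alone below it.

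Of the retinoid X receptors, the partners of both hormone receptor families, Rxrg varied widely within striatopallidal neurons. It stood at 72.4 and 93.0 CPM in striatomesencephalic neurons, compared with 147, 301 and 46.9 CPM in striatopallidal neurons. The striatopallidal values spanned 6.41-fold and enclosed both striatomesencephalic values, which differed by 1.28-fold. Mean levels were 82.7 ± 14.6 CPM (SD, n = 2) for striatomesencephalic neurons and 165 ± 128 CPM (SD, n = 3) for striatopallidal ones, with a log2 fold change of -1.22 ± 0.87 (SE). Without striatopallidal replicate 2 the log2 fold change was -0.12. Oligodendrocytes also express Rxrg. Their 11 markers lay 3 above and 8 below 0, their sums overlapped between the groups, and their part in the Rxrg values was not tested.

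Rxrb, the broadly expressed partner, was steadier. Its levels were 81.9 and 112 CPM in striatomesencephalic neurons, compared with 94.3, 175 and 115 CPM in striatopallidal neurons. The groups overlapped, and the highest value was again striatopallidal replicate 2. The striatomesencephalic mean was 97.0 ± 21.4 CPM (SD, n = 2) and the striatopallidal mean 128 ± 42.0 CPM (SD, n = 3). The log2 fold change was -0.56 ± 0.57 (SE) with all libraries and -0.02 without that library. In the annotation Rxrb and Slc39a7, a zinc transporter gene, lie on opposite strands and overlap by 2 bases. Slc39a7 followed another order, at 73.5 and 28.4 CPM in striatomesencephalic and 26.5, 9.72 and 24.7 CPM in striatopallidal libraries.

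Counted together, Rxrg took 46.9% and 45.3% of the Rxrg and Rxrb counts in striatomesencephalic libraries, against 60.9%, 63.2% and 29.1% in striatopallidal libraries. These shares compare libraries and not genes, since a longer transcript yields more counts and no transcript lengths were used. Exact 95% binomial intervals, which cover counting error only, were 62.3% to 64.1% in striatopallidal replicate 2 and 27.6% to 30.6% in replicate 3, so these libraries differed beyond counting error. Striatopallidal replicates 1 and 2 lay above both striatomesencephalic libraries and replicate 3 lay below them.

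**Figure D2:**
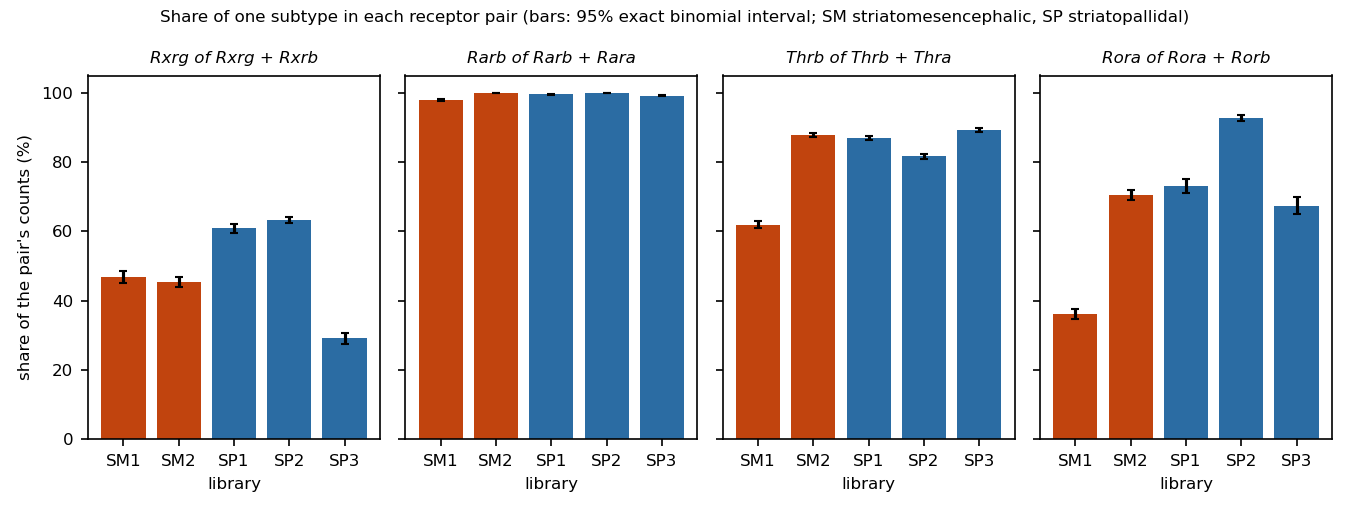
Share of Rxrg, Rarb, Thrb and Rora in the counts of their pair (vertical axis, percent) in each library (horizontal axis; SM striatomesencephalic, SP striatopallidal). Error bars are exact 95% binomial intervals, and Rarb stays at 97.9% or above in all 5 libraries while the other shares vary between libraries of the same group.

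Among retinoic acid receptors, Rarb was detected strongly in every library. It stood at 305 and 762 CPM in striatomesencephalic neurons, compared with 415, 235 and 309 CPM in striatopallidal neurons. Striatomesencephalic replicate 2 was the highest of the 5, and replicate 1 lay inside the striatopallidal range. Mean levels were 533 ± 323 CPM (SD, n = 2) for striatomesencephalic neurons and 319.9 ± 90.5 CPM (SD, n = 3) for striatopallidal ones, with a log2 fold change of 0.70 ± 0.45 (SE). That direction rested on striatomesencephalic replicate 2, without which the log2 fold change was -0.13. Without replicate 1 it was 1.23.

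Rara, the other retinoic acid receptor measured, was near the floor in some libraries. Its counts were 134 and 16 in striatomesencephalic libraries, against 38, 0 and 55 in striatopallidal libraries. The groups overlapped. The count of 0, in striatopallidal replicate 2, allows a level of up to 0.121 CPM. The log2 fold change was 1.46 ± 1.81 (SE), an error larger than the value. It was -0.82 without striatomesencephalic replicate 1. Rarb took 97.9% to 99.9% of the pair's counts in striatomesencephalic and 99.2% to 100% in striatopallidal libraries. Rarg, the third retinoic acid receptor, was not matched and is not analysed here.

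Of the thyroid hormone receptors, Thrb was the most even gene of the group. It stood at 284 and 407 CPM in striatomesencephalic neurons, compared with 383, 333 and 379.9 CPM in striatopallidal neurons. In CPM, without TMM scaling, all 5 values lay within 1.44-fold, and the striatomesencephalic libraries held both the lowest and the highest. The striatomesencephalic mean was 345 ± 87.6 CPM (SD, n = 2) and the striatopallidal mean 365 ± 27.85 CPM (SD, n = 3), with a log2 fold change of -0.16 ± 0.35 (SE). Its within-group SD on the log2 scale was 0.27, and 93.4% of the genes tested had a larger one.

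Thra differed from Thrb through a single library. It stood at 175 and 56.3 CPM in striatomesencephalic neurons, compared with 57.7, 74.9 and 45.3 CPM in striatopallidal neurons. Striatomesencephalic replicate 2 lay inside the striatopallidal range and replicate 1 was 3.10 times replicate 2. Mean levels were 115 ± 83.7 CPM (SD, n = 2) for striatomesencephalic neurons and 59.3 ± 14.9 CPM (SD, n = 3) for striatopallidal ones. The log2 fold change of 0.81 ± 0.65 (SE) was -0.19 without replicate 1. Thrb took 61.9% and 87.9% of the counts of the Thrb and Thra pair in striatomesencephalic libraries, against 86.9%, 81.6% and 89.4% in striatopallidal libraries. Strand use in counting is not stated, so reads of Thra and of its antisense partner Nr1d1 at their shared end cannot be told apart. Nr1d1 itself stood at 8.49 and 4.60 CPM in striatomesencephalic and 14.5, 3.02 and 3.44 CPM in striatopallidal libraries. Med24, which overlaps the other end of Thra, stood at 26.2 and 24.6 CPM in striatomesencephalic and 33.0, 9.11 and 15.4 CPM in striatopallidal libraries.

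**Figure D3:**
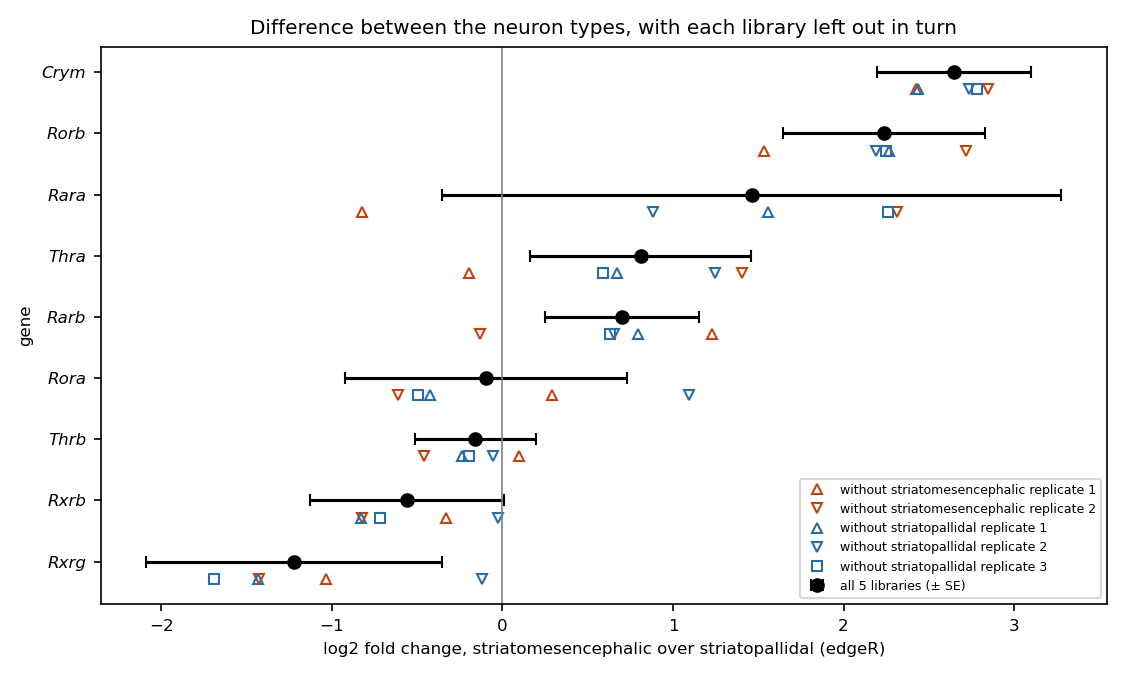
Log2 fold change of striatomesencephalic over striatopallidal libraries (horizontal axis) for each gene (vertical axis). Black points with bars are values ± SE from all 5 libraries and open symbols are the values with each library left out, where Crym and Rorb stay above 0 throughout and Rxrb and Rxrg stay below 0.

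Read as a group, 5 of the 9 genes had a log2 fold change above 0 and 4 below, with a median of 0.70, against -0.06 over all 13811 genes tested. Levels lay wholly higher in striatomesencephalic libraries for 2 of the 9, Crym and Rorb, where the share over all genes was 11.2%. They lay wholly higher in striatopallidal libraries for none of the 9, where the share over all genes was 9.91%. By edgeR's quasi-likelihood test with a Benjamini-Hochberg threshold of 0.05, 0 of the 9 were called, as were 0 (0%) of all genes, while 839 genes had an unadjusted p below 0.05. DESeq2 called Crym and Rorb, with 1.66% of all genes called. The exact test of edgeR called Crym, with 0.326% of all genes called. In simulated counts with spread near the common value of these libraries, the quasi-likelihood test recovered few or none of the changed genes. A missing call therefore does not show that a gene did not differ. The 9 genes were picked with this contrast known, so nothing is read from these counts.

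Genes whose levels across the 5 libraries most resembled those of Crym were sought by the root mean square difference of centred log2 CPM. The closest was Gpr83, a G protein-coupled receptor, at 0.13 log2 units. It stood at 13.4 and 12.2 CPM in striatomesencephalic neurons, compared with 1.34, 1.77 and 2.36 CPM in striatopallidal neurons. Next came Fxyd6, a regulator of the sodium pump, at 0.20, with 41.8 and 26.8 CPM in striatomesencephalic and 3.56, 3.83 and 8.08 CPM in striatopallidal libraries. Both repeated the order of Crym among the groups, and like Crym they were lowest in striatopallidal replicate 1. Since both were picked for likeness to Crym, this agreement follows from the choice. Pde9a, a phosphodiesterase for cGMP, followed at 0.28, Ceacam1, a cell adhesion molecule, at 0.30, and Cmip, a signalling adaptor, at 0.32. Pde9a reached 123 and 99.5 CPM in striatomesencephalic and 16.7, 22.5 and 33.6 CPM in striatopallidal libraries, and Cmip 116 and 122 CPM in striatomesencephalic and 22.5, 14.3 and 23.0 CPM in striatopallidal libraries. Ceacam1 was low everywhere, with 61 and 77 counts in striatomesencephalic and 7, 14 and 12 counts in striatopallidal libraries. Among the 8 receptors Rorb was closest to Crym, at 0.47 and rank 19 of 11903 named genes, and Thra came next at 1.12 and rank 1276. The others lay between 1.24 and 1.98. The measure covers both the difference between the groups and the spread within them, over 5 libraries.

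**Figure D4:**
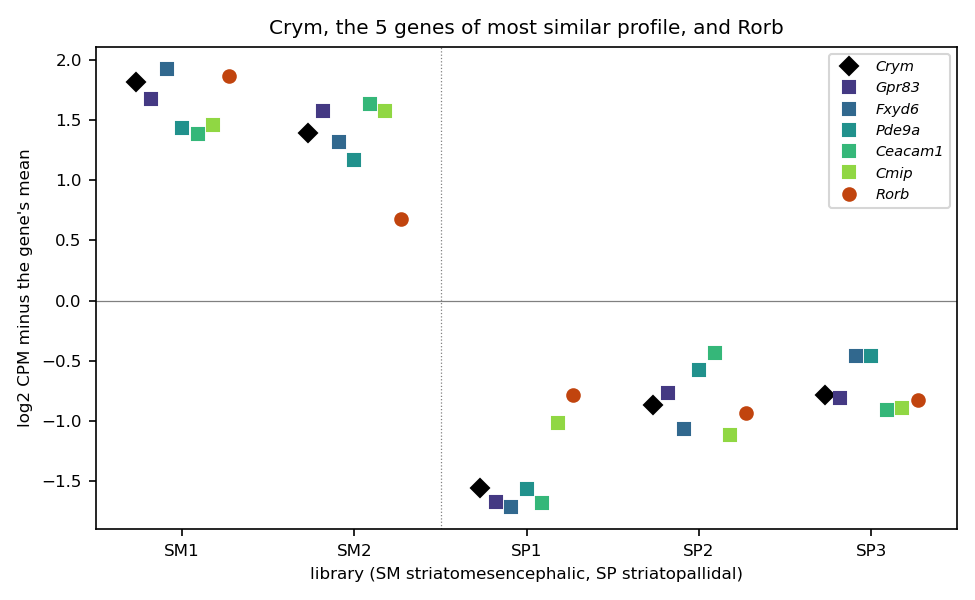
Log2 CPM minus each gene's own mean (vertical axis) in the 5 libraries (horizontal axis; SM striatomesencephalic, SP striatopallidal) for Crym, the 5 most similar genes and Rorb. All 7 genes lie above their mean in both striatomesencephalic libraries and below it in the 3 striatopallidal libraries. The 5 similar genes were picked by this profile, and Crym and Rorb with this contrast known, so nothing is read from the agreement.

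The next question was whether genes around these receptors differed between the neuron types. Lists of 8 kinds held 174 symbols, of which 116 were matched and 115 tested. None passed edgeR's quasi-likelihood test over all genes (smallest adjusted p = 0.779), while 11 had an unadjusted p below 0.05, 5 of them higher in striatomesencephalic and 6 in striatopallidal libraries. DESeq2 called 2, Gps2 and Drd2, and limma voom and the exact test of edgeR called none. Levels lay wholly higher in striatomesencephalic libraries for 17 of the 115 and in striatopallidal libraries for 8, where the shares over all genes were 11.2% and 9.91%. Over all genes 6.07% had an unadjusted p below 0.05 and DESeq2 called 1.66%.

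Thyroid hormone reaches its receptors through membrane transporters, and 9 of 14 genes of transport and deiodination were tested. Slc7a5, an amino acid transporter that also carries thyroid hormone, stood at 25.1 and 54.8 CPM in striatomesencephalic and 13.3, 6.41 and 14.8 CPM in striatopallidal libraries, which gave a log2 ratio of 1.79 ± 0.70 (SE). Slc7a8, its close relative, and Slc3a2, the heavy chain that both need, had 1.14 ± 0.68 and 0.53 ± 0.47. The libraries of Slc7a5, Slc7a8 and Slc3a2 did not overlap between the groups, and none of these genes passed the test. On the whole list 4 of the 9 genes did not overlap, all higher in striatomesencephalic neurons, where the share over all genes was 11.2%. The list had 4 genes above and 5 below 0 and a median of -0.05, which ran from -0.28 to 0.60 over 13 alternatives and changed sign in 6 of them. It was 0.60 with the replicate block and 0.39 without striatopallidal replicate 2. Slc16a10, a transporter of aromatic amino acids and thyroid hormone, stood at 8.54 and 52.4 CPM in striatomesencephalic and 32.8, 132 and 31.2 CPM in striatopallidal libraries, with overlap. Sult1a1, a sulfotransferase, rested on striatopallidal replicate 3, with 10 and 3 counts in striatomesencephalic and 15, 0 and 1872 counts in striatopallidal libraries.

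Genes known to respond to thyroid hormone were mostly below 0. Of 14 tested, 2 lay above and 12 below, with a median of -0.31, and none passed. Over all 13811 genes tested 7261 lay below 0, with a median of -0.06. Levels lay wholly higher in striatomesencephalic libraries for 1 of the 14 and in striatopallidal libraries for 1, beside 11.2% and 9.91% of all genes. Nrgn, the calmodulin-binding protein neurogranin, had the smallest p of the list and stood at 77.8 and 129 CPM in striatomesencephalic neurons, compared with 453, 152 and 349 CPM in striatopallidal neurons. The groups did not overlap, with a log2 fold change of -1.61 ± 0.49 (SE). The most abundant genes of the list had values smaller than their SE: Mbp had -0.16 ± 0.38, Itpr1, a calcium release channel, -0.23 ± 0.31 and Camk4, a calmodulin kinase, -0.11 ± 0.33. Mbp is also an oligodendrocyte marker. Nefh, a neurofilament gene, had -2.27 ± 1.44 and Me1, the malic enzyme, 1.80 ± 1.12, both with overlapping groups.

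On the retinoid side, 12 of 30 genes of transport and metabolism were tested, with 5 above and 7 below 0, a median of -0.25 and none past the test. Rbp4, the plasma retinol carrier, was even at 61.3 and 108 CPM in striatomesencephalic neurons, compared with 97.2, 68.0 and 109 CPM in striatopallidal neurons. Dhrs4, a retinal reductase, had 83 and 71 counts in striatomesencephalic and 15, 2 and 9 counts in striatopallidal libraries, which gave a log2 ratio of 3.29 ± 1.21 (SE) without overlap. Dhrs3, another retinal reductase and a known retinoic acid target, had 184 and 49 counts in striatomesencephalic and 292, 43 and 2561 counts in striatopallidal libraries, and had -2.92 ± 1.67, with striatopallidal replicate 3 far above the rest. Adh4 and Rdh12, dehydrogenases, had -0.87 ± 0.73 and -3.72 ± 2.02, both with overlap.

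Retinoic acid responsive genes other than Rarb split 6 above and 5 below 0, with a median of 0.09. The sign of that median did not hold: it was -0.90 without striatomesencephalic replicate 1, -0.41 with limma voom and -0.21 with the replicate block. Drd2, listed here because retinoids regulate it in the mouse striatum, had -2.05 ± 0.35, and it is the label check itself. Meis2 and Bcl11b, transcription factors of the striatal lineage, had 0.25 ± 0.26 and 0.09 ± 0.33. Nrip1, a corepressor induced by retinoic acid, had -1.36 ± 0.76 and did not pass.

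Receptor coactivators and corepressors, the proteins that carry the receptors' effect to chromatin, were nearly complete with 31 of 32 tested. They lay 14 above and 17 below 0, with a median of -0.14. Ncoa1, the steroid receptor coactivator, stood at 522 and 609 CPM in striatomesencephalic neurons, compared with 449, 416 and 496 CPM in striatopallidal neurons, and had 0.23 ± 0.32. Hdac3, the deacetylase of the corepressor complex, stood at 138 and 163 CPM in striatomesencephalic and 1043, 106 and 646 CPM in striatopallidal libraries, and its partner Gps2 had 9 and 15 counts in striatomesencephalic and 389, 16 and 791 counts in striatopallidal libraries. Striatopallidal replicates 1 and 3 were high for both genes and replicate 2 was not. Ep300, an acetyltransferase, reached 1305 CPM in striatopallidal replicate 2, against 145 to 305 CPM elsewhere. Kat2b, another acetyltransferase, had 2.13 ± 1.11 without overlap.

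Clock genes, only some of which are read by ROR and REV-ERB receptors in opposite directions, lay 10 above and 8 below 0. Their median was 0.06 over 18 tested. Tef, a clock output gene, stood at 332 and 383 CPM in striatomesencephalic neurons, compared with 330.2, 332 and 326 CPM in striatopallidal neurons. Its log2 fold change was 0.02 ± 0.35 (SE). Npas2, a partner of BMAL1, stood at 415 and 560.3 CPM in striatomesencephalic and 335, 207 and 377 CPM in striatopallidal libraries, which gave a log2 ratio of 0.63 ± 0.34 (SE) without overlap. Cry2, a repressor of the clock, had 1.47 ± 0.65, also without overlap. Nr1d2 stood at 95.6 and 180.2 CPM in striatomesencephalic and 230.4, 172 and 232 CPM in striatopallidal libraries and had -0.68 ± 0.44, with overlap. Nfil3, a repressor of clock output, had 61 and 708 counts in striatomesencephalic and 151, 0 and 22 counts in striatopallidal libraries.

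Crym also has an enzymatic side in lysine breakdown through pipecolate. Of 7 genes tested there, 2 lay above and 5 below 0, with a median of -0.13. Dld and Dlst, subunits shared by mitochondrial dehydrogenases, had -0.02 ± 0.51 and -0.13 ± 0.57. Dhtkd1, a mitochondrial dehydrogenase of this route, had 138 and 2028 counts in striatomesencephalic and 233, 6 and 143 counts in striatopallidal libraries, so it was high in striatomesencephalic replicate 2 alone. Ogdh, of the citric acid cycle, and Gcdh, of lysine breakdown, had -1.12 ± 0.95 and -1.13 ± 0.97, with overlap.

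**Figure D5:**
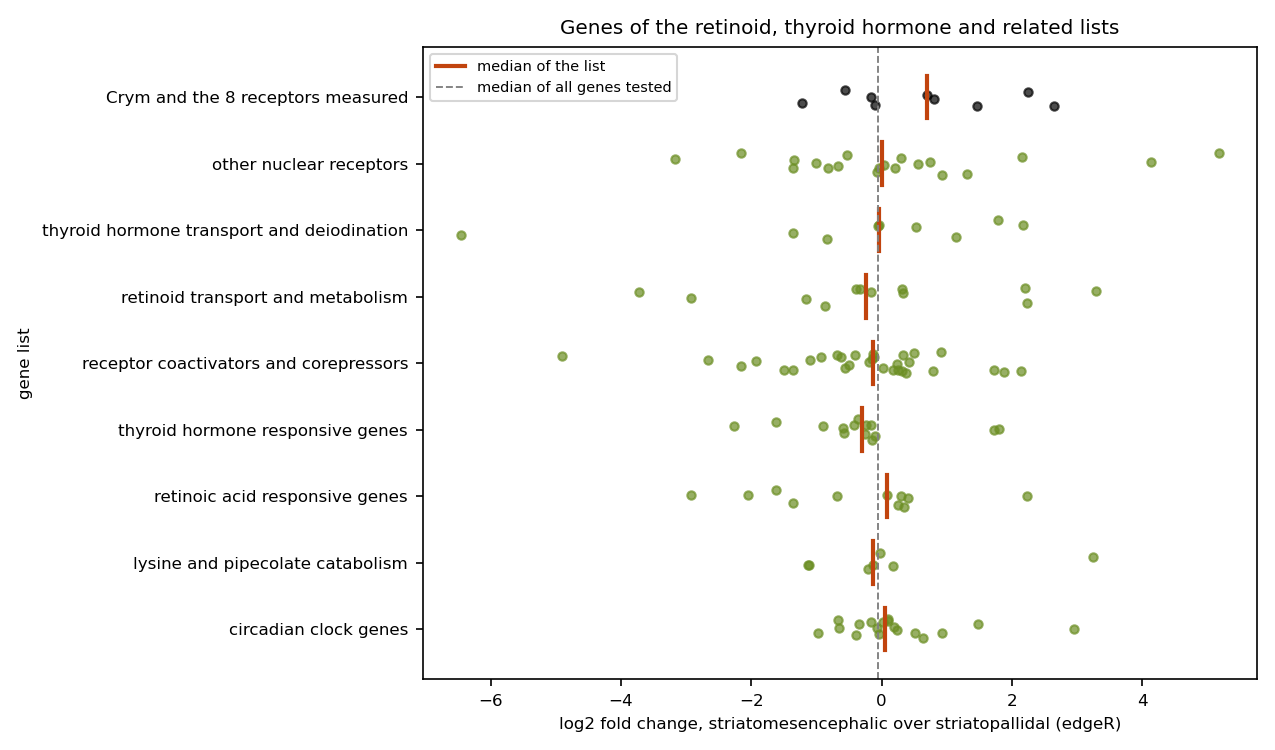
Log2 fold change of striatomesencephalic over striatopallidal libraries (horizontal axis) for the 9 measured genes (top, black) and the tested genes of each list (green). Thick red lines are list medians and the dashed line is the median of all genes tested at -0.06; medians of the 8 lists run from -0.31 to 0.09.

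The remaining nuclear receptors give a frame for the group, and 20 of 39 were matched and tested. They split 10 above and 10 below 0 with a median of 0.00, and none passed. The median was -0.50 without striatomesencephalic replicate 1 and 0.34 without replicate 2. Levels lay wholly higher in striatomesencephalic libraries for 3 and in striatopallidal libraries for 3, beside 11.2% and 9.91% of all genes. Nr4a3, an activity-induced orphan receptor, stood at 278 and 259 CPM in striatomesencephalic neurons, compared with 91.5, 9.76 and 88.0 CPM in striatopallidal neurons, which gave a log2 ratio of 2.15 ± 0.76 (SE). Esrra, an orphan receptor of energy metabolism, ran the other way at 8.83 and 13.1 CPM in striatomesencephalic and 33.1, 56.9 and 42.5 CPM in striatopallidal libraries, or -2.15 ± 0.74. Nr1i3 stood at 585 and 635 CPM in striatomesencephalic and 642, 8.63 and 511 CPM in striatopallidal libraries, low in striatopallidal replicate 2 alone. It overlaps Tomm40l on the opposite strand, and reads within the overlap cannot be told apart. Tomm40l stood at 23.3 and 5.97 CPM in striatomesencephalic and 7.88, 0.645 and 5.76 CPM in striatopallidal libraries.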

How the data were processed

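Polyadenylated RNA of laser-captured neurons was measured in 5 libraries, grouped by labelled cell type. The authors deposited read counts per Ensembl gene, and the submitters' processing notes list build Rnor_6.0 and, as tools, TopHat2, HTSeq, limma and edgeR. Neither versions nor roles nor a strand setting are stated there. The authors' deposited table gives log2 fold changes (striatopallidal over striatomesencephalic) and p-values for 12054 genes; its symbols name the genes here, and a symbol on several identifiers was left unmatched. The deposited normalized and CPM tables were not used.

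The test across genes used edgeR 4.0.16 under R 4.3.3 (filterByExpr, TMM, glmQLFit, glmQLFTest), all 5 libraries together, adjusted by Benjamini-Hochberg over 13811 genes. CPM values are counts scaled to a library total of 1000000, without TMM. The TMM factors ran from 0.774 to 1.139. The lowest was that of striatopallidal replicate 2, so the order of libraries in CPM can change with TMM scaling. A fold change's SE came from its F statistic. The step was tested on simulated counts that gave all genes the same spread. With little spread between libraries it recovered the changed genes. With spread near the common value of these libraries the quasi-likelihood test recovered few or none. Its lack of calls therefore does not show that genes did not differ. Genes whose spread lies between these settings were not simulated. Alternatives used DESeq2 1.42.0, limma 3.58.1, other scalings and filters, a replicate block and each library left out. Members and lists were chosen with earlier results of these data known. From each list the 3 most abundant genes and the 3 of smallest unadjusted p are named, with Drd1, Drd2 and the genes that overlap a named one; Med24, Slc39a7, Tomm40l and the astrocyte markers named were added after the values were seen. Some genes that this rule names are not reported here. Likeness to Crym used TMM-scaled CPM with a prior count of 2, and the 5 closest genes are named. An exact permutation of 2 against 3 libraries has 0.1 as its smallest p and was not run. Promoter sequences are from RefSeq, build GRCr8, which differs from the build of the counts.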

Additional observations from a re-analysis of the deposited data

How the results depend on the processing

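The log2 fold change of Crym kept its sign under all 13 alternatives, between 2.42 and 2.85, as did that of Rorb, between 1.53 and 2.72. Rxrb and Rxrg stayed below 0 but came near it without striatopallidal replicate 2. Rara, Rarb, Thra, Thrb and Rora each changed sign when a striatomesencephalic library was left out or, for Rora, also with limma voom or without striatopallidal replicate 2. The count of genes called was 0 in the quasi-likelihood fits and with limma voom, 219 with DESeq2 and 45 with the exact test of edgeR, and that of the listed pathway genes was 2 with DESeq2; the cause was not tested. With each library left out, 2 to 4 of the 9 genes lay wholly higher in striatomesencephalic and 0 to 2 in striatopallidal libraries. Fewer samples make separation easier for any gene. The shares over all genes with a library left out are not given here, so nothing is read from these counts. The difference in the share of Thrb ran from -24.08 to 1.90 percentage points, that of Rarb from -1.68 to 0.30, that of Rxrg from -15.92 to 1.16 and that of Rora from -41.74 to -7.19. Leaving out either striatomesencephalic library moved the median of all genes to -0.27. The labels do not say whether the replicate numbers pair the libraries. Deviations of same-numbered libraries from their group means correlated at -0.02 and -0.03. With 2 striatomesencephalic libraries these deviations mirror each other, so the values cannot decide the question. With the replicate number as a block, 0 genes were called. Shares per kilobase were not run, as no transcript lengths were used. Of the 5 genes most like Crym, 4 stayed among the closest 5 with a prior count of 10. Rara had 0 to 134 counts.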
